A study of Mus musculus with 2 samples.

Results

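The 10 genes described here encode proteins of the 2 adhesive junctions that hold epithelial sheets together, and they were measured on both arrays by 13 of the 55681 non-control probes. They are 10 of 20656 genes with a named probe. The list holds the classical cadherins Cdh1 and Cdh2, the catenins Ctnna1 and Ctnnd1, the adhesion molecule Epcam, and the desmosome genes Dsp, Dsg2, Dsc2, Jup and Pkp2. Members were chosen by gene name, on a list drawn up with earlier results of these data known, and every probe whose RefSeq accession belongs to one of them was kept. RNA came from lung epithelial cells labelled Mob1DKO, with 1 array, and from wild-type (WT) lung epithelial cells, with 1 array. Both groups are C57BL/6 mice aged 10 weeks. The name Mob1DKO has no expansion in the labels and is taken here, from what is known of these mice, to mean loss of the paired Mob1a and Mob1b genes, whose adaptor proteins activate LATS kinases in Hippo signalling. The labels do not give the Cre driver, the sex, the number of animals in each preparation or the way the cells were isolated.

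At the adherens junction, cadherins of neighbouring cells bind each other outside the membrane, while inside it they hold p120-catenin and beta-catenin, and alpha-catenin links the complex to actin. At the desmosome, desmogleins and desmocollins bind across the gap, and plakoglobin, plakophilins and desmoplakin tie them to keratin filaments. In lung, E-cadherin is the cadherin of alveolar and airway epithelium, whereas N-cadherin is typical of mesenchymal and mesothelial cells and of heart muscle. Adherens junctions are also a known upstream input to the Hippo pathway, since alpha-catenin can hold its effector YAP at the membrane.

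Processed signals were expressed as log2 relative to the 75th percentile of all non-control probes on the same array, which is called the level below. That percentile was 291 in Mob1DKO and 155 in WT, a ratio of 1.88. A difference is the Mob1DKO level minus the WT level, and since probes differ in how well they bind, bright and faint describe a probe's signal and not the amount of its RNA, so genes are not ranked by level. With 1 array per group no test was possible, and no p-values are given. The spread of repeated spots gave the technical SD of a single-spot difference. It was 0.56 for mean levels under −2, 0.25 between −2 and 0, 0.098 between 0 and 3, and 0.061 above 3. The mean level is that of the 2 arrays, and the technical SD leaves out the spread between animals. Of all 15095 measured genes, 3.79% were called higher and 2.9% lower, so short lists, here and below, often hold no call. Lung epithelial markers were well above background on both arrays for 8 of 8 genes, with differences of −0.84 to 0.65, and none was called. The low end depended on the setting. Scgb1a1 at −0.84 and Sftpc at −0.78 were both 0 under a model-based background correction (normexp) followed by quantile normalization. Quantile normalization gives probes of equal rank the same value, and with it alone Scgb1a1 differed by −0.14 and Sftpc by 0. With the scanner software's background-subtracted signal, Scgb1a1 differed by −0.81 and Sftpc by −0.74. All 4 endothelial markers were measured and none was called. Of 4 leukocyte markers, Cd79a was at least 3.38-fold higher. Its WT signal was not well above background, and Cd79a differed by 0.57 under normexp. Cd3e differed by −0.13, Ptprc passed the background flag on neither array and 1 marker had no named probe. Of 3 red cell markers, both that were measured were called lower. Of the targeted genes, Mob1b was lower by a factor of 4.0 and Mob1a differed by 0.07, and the position of their probes relative to the deleted parts is not known here. Xist was 4.9-fold lower and the Y-linked Ddx3y at least 22.7-fold higher on the Mob1DKO array, so the sex of the animals and the genotype cannot be told apart.

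Most of the adherens junction and desmosome genes stood at nearly the same level on the Mob1DKO and WT arrays. All 13 probes were well above background on both arrays, so a filter on low values removed none. N-cadherin was the exception, with 1 of its 2 probes 2.61-fold higher on the Mob1DKO array, and no probe was lower by 2-fold or more. Of all 33502 probes that were well above background in 1 or both samples, 5.81% passed the 2-fold rule as higher and 3.7% as lower, and of the 28708 that were so on both arrays, 1.52% were higher and 1.76% lower. At 1.5-fold, 2 junction probes were higher, both of Cdh2, and 2 were lower, the second probes of Dsp and Dsg2, where 11.7% of all probes were higher and 8.71% lower. The 11 probes of the other 9 genes differed by −0.76 to 0.35, and 9 of them lay within 0.5 of no difference. The median over the brightest probe of each of the 10 genes was 0.15, against 0.02 over all 15095 measured genes. Of these 10 probes, 7 had a difference above 0 and 3 below it.

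**Figure D1:**
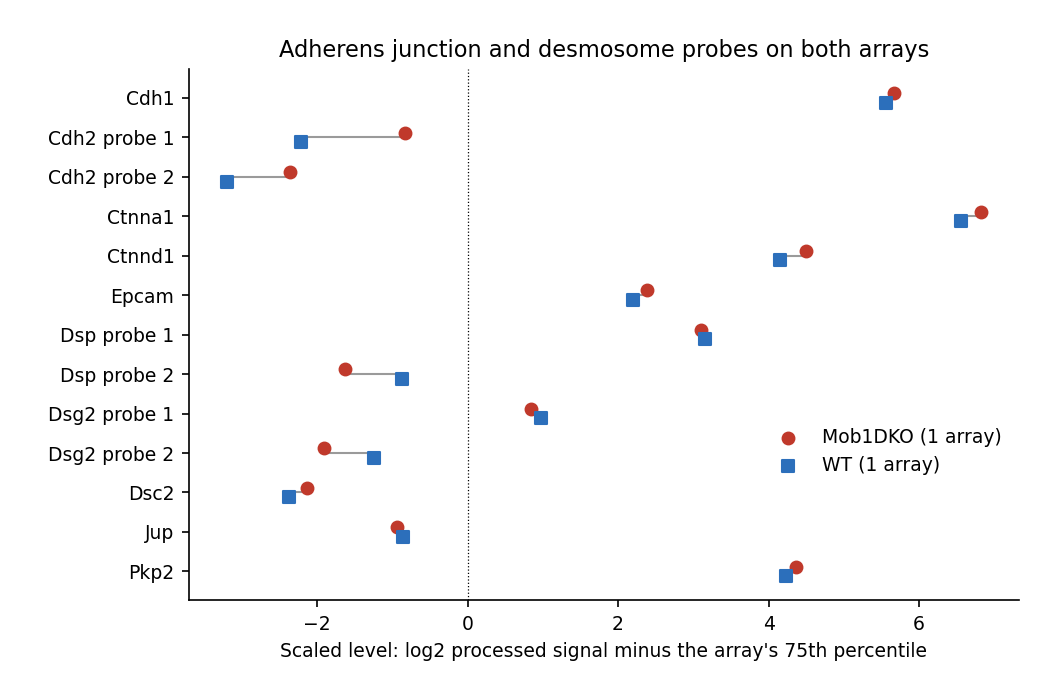
Level of each adherens junction and desmosome probe (horizontal axis, log2 of the processed signal minus the 75th percentile of its array) on the Mob1DKO array (red circles) and the WT array (blue squares), 1 array each. The 2 symbols nearly coincide for most probes, and stand furthest apart for Cdh2 probe 1, at −0.84 in Mob1DKO and −2.22 in WT. They also stand apart for Cdh2 probe 2 (a difference of 0.84), Dsp probe 2 (−0.76) and Dsg2 probe 2 (−0.66).

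E-cadherin, encoded by Cdh1 and the main adhesion receptor of epithelial adherens junctions, was almost level between the arrays. Its probe was printed at 10 spots per array. Processed signals ran from 14258 through a median of 14728 to 15343 over the Mob1DKO spots, and from 6998 through 7342 to 7587 over the WT spots. After scaling, the Mob1DKO spots had levels of 5.66 ± 0.032 and the WT spots 5.56 ± 0.038 (mean and SD over 10 spots each). The lowest Mob1DKO spot and the highest WT spot both stood at 5.61, so the 2 sets of spots did not overlap but nearly touched. The difference was 0.10, or 1.07-fold, and it stayed between 0.08 and 0.17 under the 8 other settings that scale or correct the arrays. Repeated spots leave out the spread between animals. The 1000 probes closest in level had a median difference of −0.06 and a 5th to 95th percentile range of −0.52 to 0.40, which holds the Cdh1 value.

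N-cadherin, encoded by Cdh2 and the cadherin that replaces E-cadherin in epithelial cells that turn mesenchymal, was the member with the largest difference. Its first probe had a processed signal of 163 in Mob1DKO and 33.3 in WT, that is, levels of −0.84 and −2.22. The difference of 1.39 lay at the 99.1st percentile of the 1000 probes closest in level. The technical SD at its mean level of −1.53 was 0.25, but the WT level alone falls in the range where it was 0.56. The second probe gave 56.7 in Mob1DKO and 16.8 in WT, a difference of 0.84 or 1.79-fold with a technical SD of 0.56. Its WT signal sat just above 14.1, the lowest signal well above background on that array, and its difference lay at the 90th percentile of probes of like level. Both probes were thus higher on the Mob1DKO array and faint on the WT array.

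The first Cdh2 probe was under 2-fold in 1 of the other scaled settings, a model-based background correction (normexp). There the first probe differed by 0.77 and the second by 0.40. That setting changes the background model, adds an offset of 50 and starts from the median signal of each spot. It ends with quantile normalization between arrays, which alone gave 1.37 on the first probe and 0.82 on the second. Which of these steps moved the value was not tested. With the scanner software's background-subtracted signal the first probe differed by 1.39 and the second by 0.87. The gap between Cdh2 and Cdh1 does not depend on a common scaling factor. On the first Cdh2 probe it was 1.29, a 2.44-fold unequal change of the pair, with a range of 0.60 to 1.29 over the other settings. On the second probe it was 0.74, with a range of 0.24 to 0.75.

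N-cadherin is also made by other cells of the lung, so markers of those cells were read beside it. All 6 fibroblast and smooth muscle markers were measured and none was called, with 4 differences above 0, a range of −0.97 to 0.18 and a median of 0.04. Their summed level, in units of the 75th percentile, was 98.0 in Mob1DKO and 101.7 in WT, most of it from the Dcn probe, which differed by 0.18. All 4 mesothelial markers were measured and none was called, with 2 differences above 0, a range of −0.34 to 0.52, the highest for Wt1, and a summed level of 47.5 in Mob1DKO against 55.4 in WT. Of 6 heart muscle markers, which mark the muscle sleeve of pulmonary veins, 5 had a difference below 0 and none was called. Their differences ran from −0.89 to 0.52, with a summed level of 4.83 in Mob1DKO against 7.58 in WT. Each of these sums rests mostly on its brightest probes and is not a total for a cell type. Among all 15095 measured genes 3.79% were called higher and 2.9% lower, so marker lists this short often hold no call. The part of fibroblast, muscle and mesothelial cells in the Cdh2 value was not tested. In RNA from many cells, fewer cells of a type and less RNA per cell cannot be told apart.

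**Figure D2:**
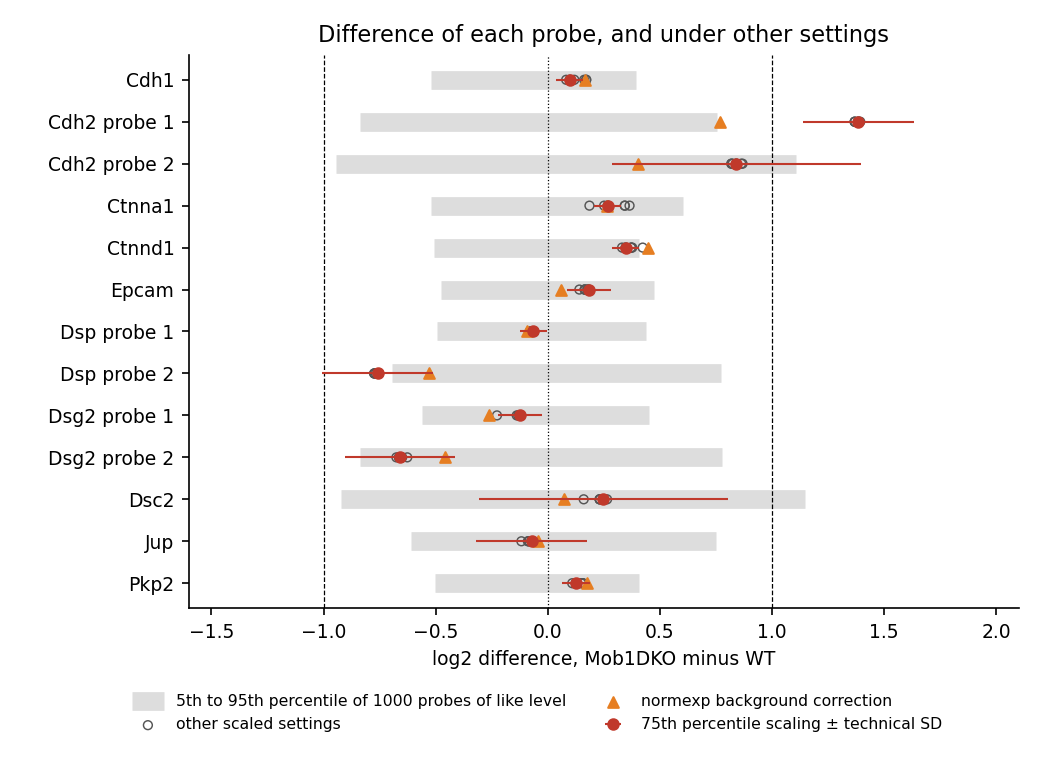
Difference of each probe (horizontal axis, log2, Mob1DKO minus WT) with 75th percentile scaling (red, bars of 1 technical SD of a single-spot difference), with normexp background correction (orange triangles) and with 7 other scaled settings (open circles). Grey bars span the 5th to 95th percentile of the 1000 probes closest in level and dashed lines mark 2-fold. Cdh2 probe 1 lies right of its grey bar, with its normexp value of 0.77 at the edge of the bar, and Dsp probe 2 lies left of its bar at −0.76.

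The 2 catenins were slightly higher on the Mob1DKO array, and both were bright. Ctnnd1 encodes p120-catenin, which binds the cadherin tail next to the membrane and protects it from endocytosis. Its probe had a processed signal of 6584 in Mob1DKO and 2753 in WT, or levels of 4.50 and 4.15. The difference of 0.35, or 1.27-fold, lay at the 93.6th percentile of probes of like level and between 0.33 and 0.45 under the other scaled settings. Ctnna1 encodes alpha-E-catenin, the actin link of the complex. Its probe had a processed signal of 32939 in Mob1DKO and 14559 in WT, or levels of 6.82 and 6.55. Its difference was 0.27, or 1.20-fold, at the 89.1st percentile of probes of like level, and ranged over settings from 0.19 to 0.37. Both differences exceeded the technical SD of 0.061, yet both lay inside the 5th to 95th percentile range of probes as bright as they are, and neither reached 1.5-fold.

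Epcam, a homophilic adhesion molecule that is widely used to sort epithelial cells, had a processed signal of 1522 in Mob1DKO and 714 in WT. Its levels were 2.39 and 2.20, a difference of 0.18 or 1.13-fold with a technical SD of 0.098. Over the other scaled settings it ran from 0.06, under normexp, to 0.18. EpCAM binds claudin-7 and is cleaved by matriptase, whose inhibitors are encoded by Spint1 and Spint2. Cldn7 differed by 0.34, Spint1 by 0.05 and Spint2 by −0.05, with a second, dimmer Spint2 probe at −0.41. None of the 4 listed relatives and partners of EpCAM was called, and their median was 0.16.

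Among the plaque proteins of the desmosome, the bright probes were level between the arrays. Dsp encodes desmoplakin, which links the plaque to keratin filaments. Its first probe, printed at 10 spots, gave levels of 3.10 ± 0.046 in Mob1DKO and 3.16 ± 0.051 in WT (mean and SD over 10 spots each). The processed signal ran from 2342 through a median of 2504 to 2609 over the Mob1DKO spots, and from 1309 through 1379 to 1482 over the WT spots. The scaled spots overlapped, with Mob1DKO levels of 3.01 to 3.16 and WT levels of 3.08 to 3.26. The difference was −0.06, and 8 of 10 spot pairs were below 0. The SD between spot pairs was 0.078, which describes a single pair and not the mean of 10.

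**Figure D3:**
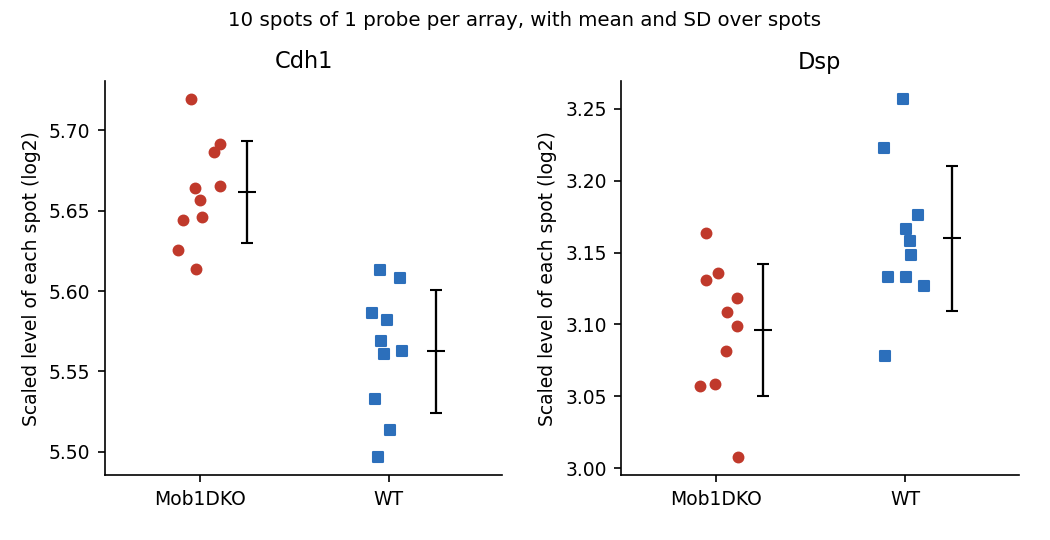
Scaled level (vertical axis, log2) of each of the 10 spots of the Cdh1 probe (left) and of Dsp probe 1 (right) on the Mob1DKO array (red circles) and the WT array (blue squares), with the mean and SD over spots in black. The Cdh1 spots nearly touch at 5.61, and the Dsp spots overlap from 3.08 to 3.16; the axes do not start at 0.

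Pkp2 encodes plakophilin 2, an armadillo protein of the plaque of simple epithelia and heart muscle. It had a processed signal of 5983 in Mob1DKO and 2919 in WT, or levels of 4.36 and 4.24. The difference of 0.13 lay at the 75.9th percentile of probes of like level. Jup encodes plakoglobin, the catenin that can join both desmosomes and adherens junctions. Its probe was faint, with a processed signal of 153 in Mob1DKO and 85.4 in WT, or levels of −0.93 and −0.86. Its difference of −0.07 was within the technical SD of 0.25 and lay at the 43.5th percentile of probes of like level.

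The desmosomal cadherins had differences of about 1 technical SD or less on their first probes. Dsg2 encodes desmoglein 2, the desmoglein of simple epithelia. Its first probe had a processed signal of 524 in Mob1DKO and 304 in WT, levels of 0.85 and 0.97. The difference of −0.12 was close to the technical SD of 0.098. Dsc2 encodes desmocollin 2, the matching desmocollin, and had a processed signal of 66.4 in Mob1DKO and 29.8 in WT, or levels of −2.13 and −2.38. Its difference of 0.25 was within the technical SD of 0.56, so a difference of this size was not resolved at this brightness.

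The 2 desmosome genes with several probes gave different answers from each. The second Dsp probe had a processed signal of 93.9 in Mob1DKO and 84.5 in WT, levels of −1.63 and −0.87. Its difference of −0.76, or 1.69-fold lower, lay at the 3.9th percentile of probes of like level and was about 3 times its technical SD of 0.25. The gap to the first Dsp probe was 0.69. The second Dsg2 probe had a processed signal of 77.9 in Mob1DKO and 65.4 in WT, a difference of −0.66 at the 7.6th percentile, with a gap of 0.54 to the first. The gap between the 2 Cdh2 probes was also 0.54. Several probes of 1 gene passed the background criterion in both samples for 3404 genes, and their highest and lowest differences lay a median of 0.24 apart, with a 90th percentile of 0.75. In Dsp and Dsg2 the second, fainter probe gave the lower Mob1DKO value, while the brighter probes differed by −0.06 and −0.12. All probes of each gene carry 1 RefSeq accession, and their places on the transcript were not analysed here.

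**Figure D4:**
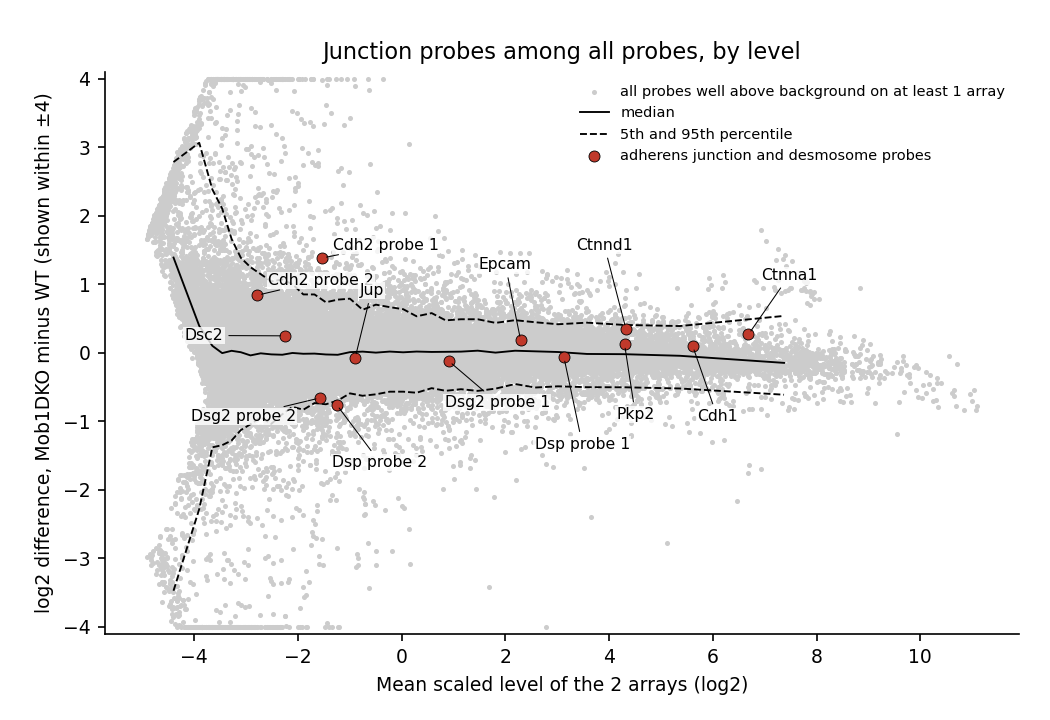
Difference (vertical axis, log2, Mob1DKO minus WT, values beyond ±4 drawn at the edge) against the mean level of the 2 arrays (horizontal axis, log2) for all 33502 probes well above background on at least 1 array (grey) and for the 13 junction probes (red, named). Lines give the running median (solid) and the 5th and 95th percentiles (dashed), which widen below a level of about −2. Cdh2 probe 1 lies above the upper line and Dsp probe 2 at the lower one.

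Other adherens junction genes were mostly level too, with a few faint exceptions. Of 18 listed, 17 were measured, with 2 called higher, 1 called lower and a median of 0.16. Over all 15095 measured genes, 3.79% were called higher and 2.9% lower. Plekha7, which ties p120-catenin to microtubule ends at the junction, was 3.71-fold higher, with a level of −0.30 in Mob1DKO and −2.19 in WT. The difference of 1.89 became 1.15 under normexp and so stayed past 2-fold. Ctnna2, the alpha-catenin of neurons, was at least 2.5-fold higher, since its WT signal was not well above background, but differed by 0.56 under normexp, and its second probe did not pass the background flag in either sample. P-cadherin, encoded by Cdh3 and typical of basal cells, was at least 2.32-fold lower, with the Mob1DKO signal not well above background, and differed by −0.23 under normexp. Beside Cdh3, 2 of 4 measured basal cell markers were called lower, Krt5 with a difference of −2.89 and Krt15 with −1.57, while Krt14 differed by −0.55 and Trp63 by −0.23. A second, fainter Trp63 probe was at least 5.55-fold lower, with a processed signal of 9.2 in Mob1DKO, not well above background, and 50.2 in WT. The part of these genes in the Cdh3 value was not tested. Genes of the list with the brightest probes were Ctnnb1, which encodes beta-catenin, at 0.18, Camsap3, which anchors microtubule minus ends, at 0.15, and Vcl, which encodes vinculin, at 0.29. A second, fainter Vcl probe differed by −0.24.

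Of 16 other cadherins listed, 12 were measured, with 1 called higher, none lower and a median of −0.13. The called gene was Cdh11, a mesenchymal cadherin. It was 3.15-fold higher, at a level of 0.00 in Mob1DKO and −1.66 in WT. The difference of 1.65 became 1.06 under normexp, but a second, fainter probe gave −2.73 in Mob1DKO and −2.75 in WT, a difference of 0.03. The fibroblast and smooth muscle markers given beside Cdh2 apply here as well, with 4 of 6 differences above 0 and a range of −0.97 to 0.18. Their part in the Cdh11 value was not tested. The cadherin genes with the brightest probes were Cdh16 at −0.41, Cdhr2 at −0.29 and the ciliated cell cadherin Cdhr3 at 0.01. Cdh4 differed by −0.24 on its brighter probe, whereas a second probe had a processed signal of 52.4 in Mob1DKO and 6.15 in WT, not well above background there, and was at least 1.97-fold higher. Cdh5, the cadherin of endothelium, did not pass the background flag in either sample.

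Of 13 other desmosome genes listed, 6 were measured and none was called, with differences of −0.72 to 0.91 and a median of 0.14. The measured genes with the brightest probes were Perp, a membrane protein needed for desmosome assembly, at −0.05, Ppl, which encodes the linker periplakin, at 0.46, and Pkp3, which encodes plakophilin 3, at −0.72. Pkp3 was therefore 1.65-fold lower, on a bright probe with a level of 3.16 in Mob1DKO and 3.89 in WT, and it stayed between −0.88 and −0.71 under the other scaled settings. The other bright plakophilin probe, that of Pkp2, was nearly level at 0.13, and the dimmer Pkp4 probe differed by 0.07. The desmosomal cadherins of stratified epithelium were near background, since Dsg1a, Dsg1b, Dsg3, Dsg4, Dsc1, Dsc3 and the plakophilin gene Pkp1 did not pass the background flag in either sample. The exception was Dsg1c, a desmoglein 1 gene, which was measured at a level of −0.27 in Mob1DKO and −1.17 in WT, a difference of 0.91 that missed the 2-fold rule; it is named here after its value was seen.

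Of 8 listed genes of cadherin turnover and shedding, 7 were measured and none was called, with differences of −0.35 to 0.43 and a median of 0.10. Those with the brightest probes were Rab11a, a GTPase of cadherin recycling, at −0.19, Adam10, the protease that sheds E-cadherin, at −0.24, and Cbll1, which encodes the E-cadherin ubiquitin ligase Hakai, at 0.16.

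**Figure D5:**
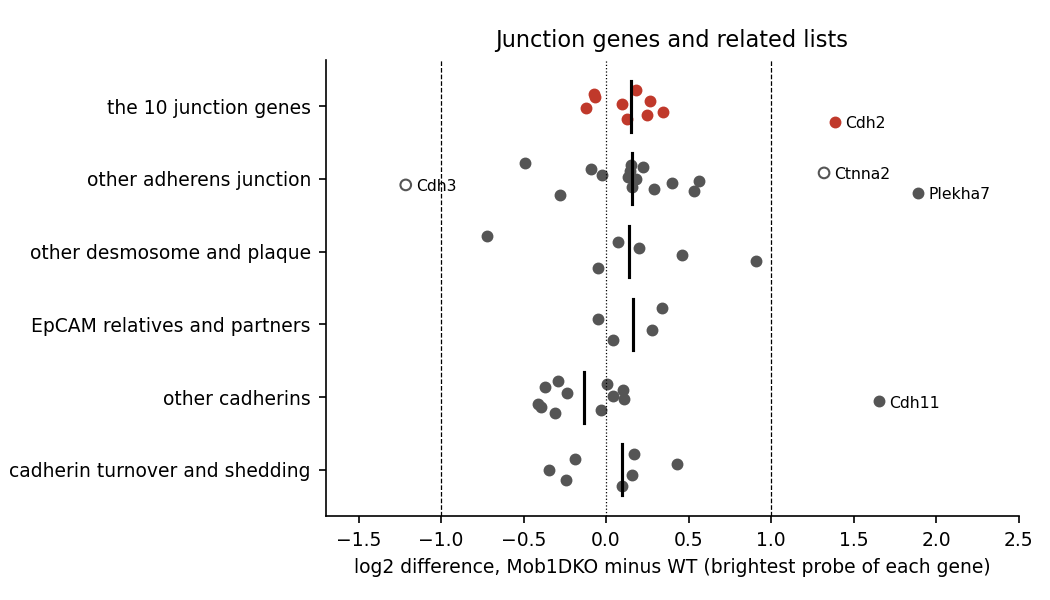
Difference (horizontal axis, log2, Mob1DKO minus WT, brightest probe) of each measured gene of the 10 junction genes (red) and of 5 related lists (grey), with the list median as a vertical bar and 2-fold as dashed lines. Open circles mark genes well above background on 1 array only, drawn at the bound of their difference. Cdh2, Plekha7, Cdh11 and Ctnna2 lie beyond 2-fold higher, Cdh3 lies beyond 2-fold lower, and the other genes lie between −0.72 and 0.91.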

How the data were processed

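Per the labels' protocols, amplified cRNA made from total RNA carried the dye Cy3; each sample has 1 Agilent array. The deposited scanner files hold linear intensity values of each spot, made with Feature Extraction 10.7.1.1 per the file headers (9.5.1.1 per the submitters' processing notes). The processed signal is background-subtracted and detrended within the array.

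Spots of a probe were averaged, and each mean was divided by the 75th percentile of its array and put on the log2 scale. Probes were named through RefSeq accessions in a table of assembly GRCm38.p6, used for names only. A call needed a difference of at least 1 in size and a signal well above background, by the scanner software's flag, in the brighter sample. The brightest probe stands for a gene in lists. A bound sets the brighter level against the lowest level well above background on the other array (−4.10 for Mob1DKO, −3.45 for WT). No test was run. Alternatives were other scalings, loess (span 0.3), normexp, the series value table, and other spot rules. Normexp used an offset of 50 on the median signal and was followed by quantile normalization between arrays. The mean signal planned for normexp was not available. Members, lists and the rule for named genes (called genes up to 6 a list and the 3 brightest) were chosen with earlier results of these data known. Krt5, Krt15, Wt1, Dcn, Cdh4, Pkp4, Scgb1a1, Sftpc and second probes are named beyond it. Scaling and the 2-fold cut were tested on simulated data, with changes only on probes above the median signal and equal noise at every level. The background flag and the larger noise of faint probes were not simulated. Python 3.11.15, statsmodels 0.14.6, R 4.3.3 and limma 3.58.1 were used.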

Additional observations from a re-analysis of the deposited data

How the results depend on the processing

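No paired analysis was possible because each group has 1 array. With no scaling between arrays, which moves the median of all probes to 0.92, 8 of the 13 junction probes were at least 2-fold brighter on the Mob1DKO array and their median was 1.03 (0.13 with scaling). The list medians then were 1.07 for other adherens junction genes, 1.05 for other desmosome genes, 1.07 for EpCAM partners, 0.78 for other cadherins and 1.01 for cadherin turnover. Under normexp 0 of the 13 probes were 2-fold higher. At 1.5-fold, 2 were higher and 2 lower. No called probe turned its direction in the settings run. The background-subtracted signal was an alternative chosen after seeing the data, and it moved no count. Brightness limits Dsc2, both Cdh2 probes and the second probes of Dsp and Dsg2. In WT the first Cdh2 probe lay 1.23 and the second 0.25 above the lowest level well above background, on the log2 scale, and 11 of the 13 junction probes rest on 1 spot per array.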
